A study of Caenorhabditis elegans with 10 samples.

Results

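The 6 vitellogenin genes of the nematode Caenorhabditis elegans, vit-1 to vit-6, were examined for binding by the transcription factors CEH-60, UNC-62 and PQM-1. Members were taken by position: every chromatin immunoprecipitation (ChIP-seq) peak of 8 lists with any base in a vit gene or within 1000 bp of either end. Gene ends came from a RefSeq gene table of the assembly WBcel235. The 6 genes stand among 19971 nuclear protein-coding genes, and the rule found 130 of 40986 peaks. Those were 24 peaks for vit-1, 24 for vit-2, 17 for vit-3, 17 for vit-4, 25 for vit-5 and 23 for vit-6.

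Vitellogenins are the lipid-binding precursors of yolk. In the adult hermaphrodite the intestine makes them in large amounts and secretes them into the body cavity, and oocytes take them up. vit-1 and vit-2 are close relatives, the genes vit-3 to vit-5 are nearly the same in sequence, and vit-6 is the most distant member, whose product is cut into a pair of yolk polypeptides. CEH-60 is a PBX-family homeodomain protein and UNC-62 a MEIS-family one, and proteins of these families bind DNA as partners. PQM-1, a zinc finger transcription factor, acts in intestinal cells.

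All libraries were made from whole animals on day 1 of adulthood. CEH-60 was recovered with antibodies to HA from DLS395, of genotype ceh-60(rhd116), by antibody 3F10 in replicates 1 and 2 and by antibody mIgG1 in 1 library. DLS396, ceh-60(rhd116); gaIs285, gave a CEH-60 library with 3F10 and an UNC-62 library with 3E6, an antibody to GFP, so both its factors were read in animals with the added transgene. DLS435, pqm-1(ok485); ceh-60(rhd116), gave a CEH-60 library without normal pqm-1. PQM-1 was recovered with M2, an antibody to FLAG, from OP201, unc-119(tm4063); wgIs201, and from DLS422, ceh-60(ok1485); wgIs201. Every PQM-1 value thus comes from a transgene, and every CEH-60 value from animals with the allele rhd116. The 2 input libraries were not analysed here. Crosslinking was long, 2% formaldehyde for 30 min, in CEH-60 replicate 1, mIgG1 and both DLS396 libraries. It was short, 1% for 5 min, in CEH-60 replicate 2, DLS435, OP201 and DLS422.

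Lists held 2048 to 9010 peaks, and depth is unknown. The fold of a peak is the authors' own value, the signal at the summit over local background, and serves here to describe and rank peaks within a list. No group but CEH-60 in DLS395 with 3F10 had more than 1 library, and its replicates differ in crosslinking, so no difference was tested. Coordinates are those of the deposited lists, counted from 1. The sources used here name no genome build for them. Gene strand was not used, so ends are called low-coordinate and high-coordinate. Nor do they say how a read that fits more than 1 copy was placed, which touches every value of vit-3, vit-4 and vit-5.

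All 6 vit genes had peaks in all 5 CEH-60 lists, in the UNC-62 list and in the PQM-1 list of OP201. The PQM-1 list of DLS422 had a peak by vit-4 alone. With a peak required to touch the gene itself, the count was 4 of 6 in DLS435 and 5 of 6 in OP201, and with a −log10 q of 10 or more it was 5 of 6 in both. By the same rule, the share of protein-coding genes with a peak was 33.2% in CEH-60 replicate 1, 33.3% in DLS396 with 3F10, 18.4% with mIgG1 and 8.58% for UNC-62. It was 13.3% in CEH-60 replicate 2, 7.63% in DLS435, 21.2% for PQM-1 in OP201 and 16.9% in DLS422. A peak in every CEH-60 list was found at 6.97% of protein-coding genes and at 6 of 6 vit genes, also when either replicate was left out.

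The number of vit peaks was 24 in CEH-60 replicate 1, 22 in DLS396, 11 with mIgG1 and 11 for UNC-62. With short crosslinking it was 32 in CEH-60 replicate 2, 15 in DLS435, 14 for PQM-1 in OP201 and 1 in DLS422. The UNC-62 and mIgG1 lists had few peaks beyond those at the gene ends, and CEH-60 replicate 2 had the most. Nearest to the limit of the rule, the members just inside lay 977 bp from vit-1 (CEH-60 replicate 1, 10.1-fold), 970 bp from vit-4 (mIgG1, 4.95-fold) and 925 bp from vit-2 (DLS435, 1.95-fold). Just outside lay peaks 1014 bp from vit-3 (CEH-60 replicate 2, 2.29-fold), 1036 bp from vit-4 (UNC-62, 3.06-fold) and 1041 bp from vit-2 (OP201, 2.02-fold).

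**Figure D1:**
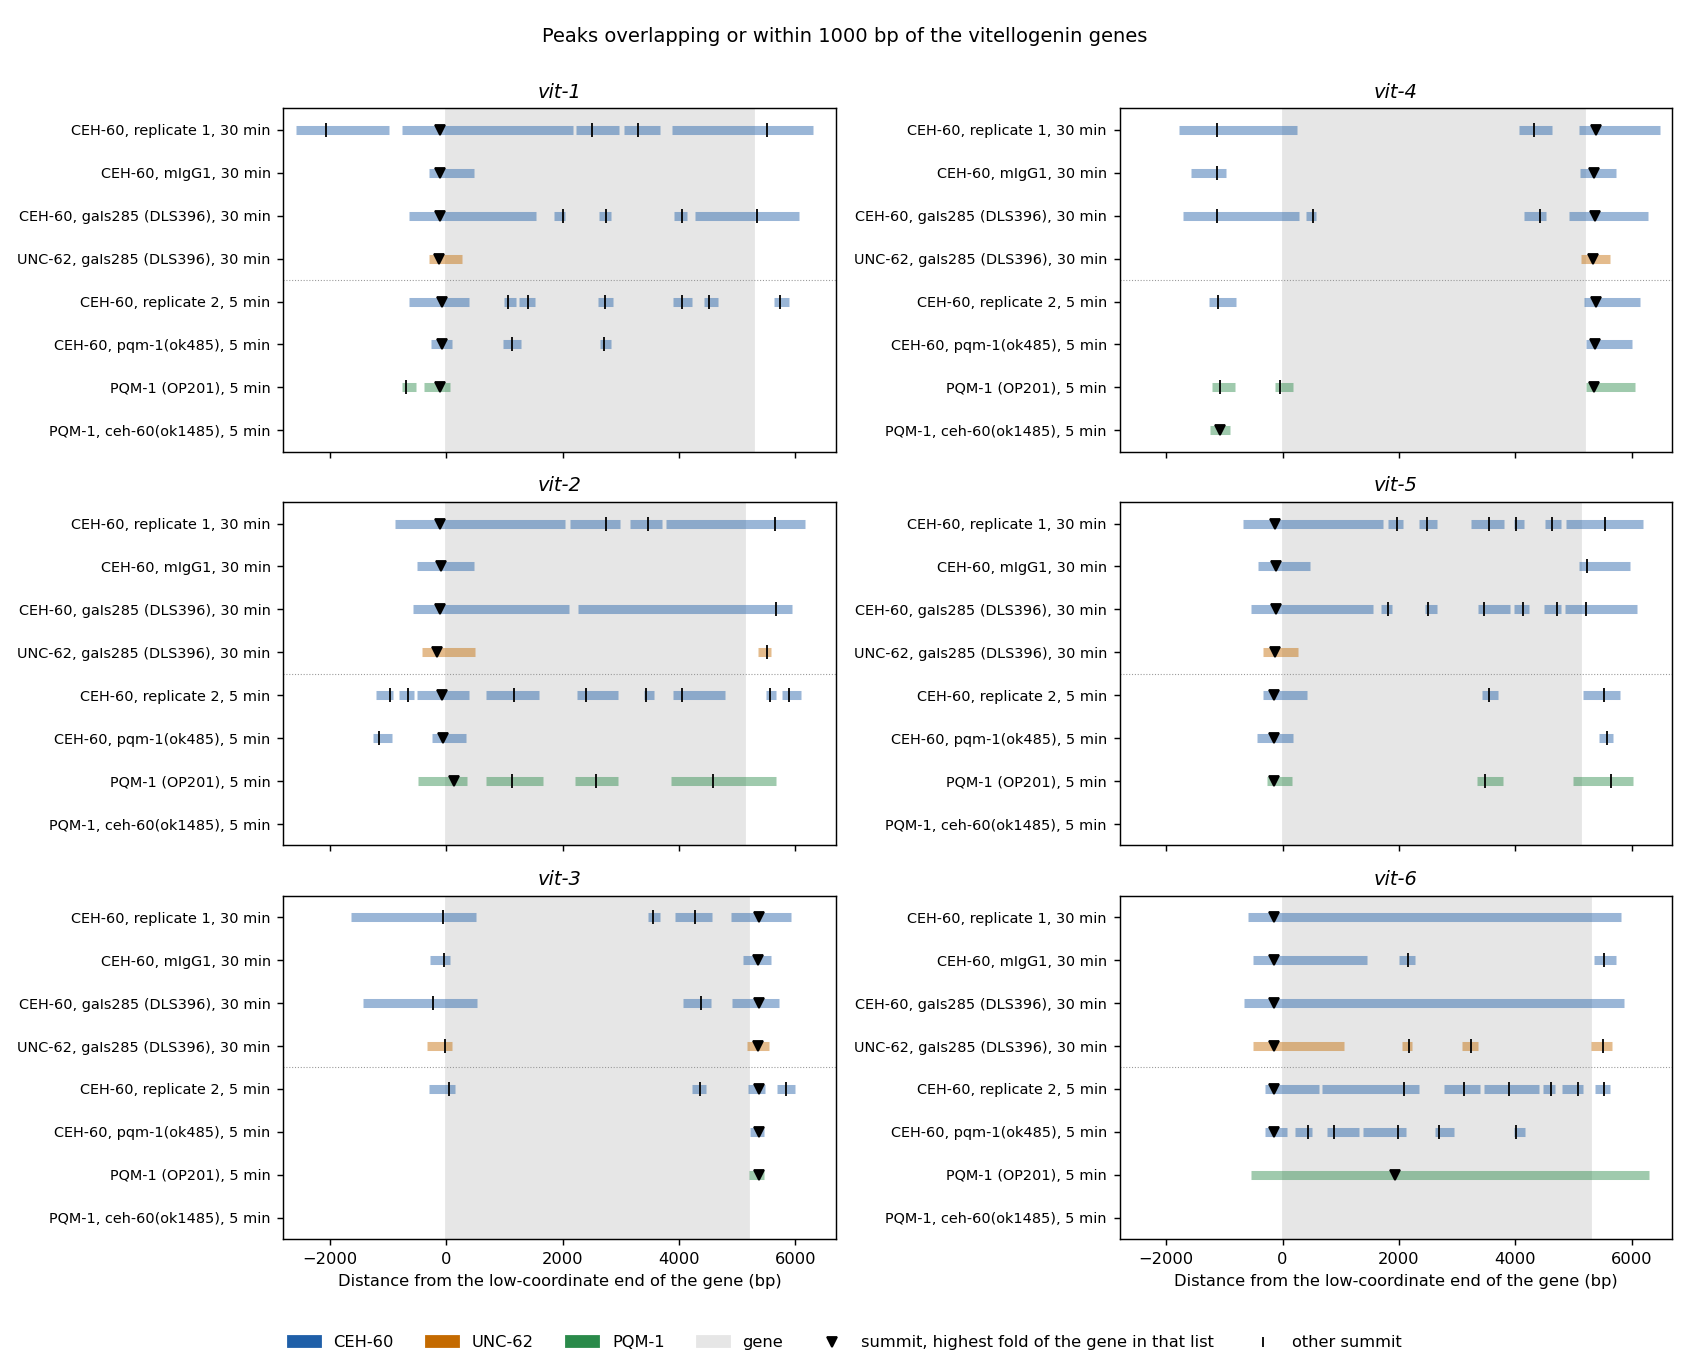
Peaks at each vit gene in the 8 lists, by distance in bp from the low-coordinate end of the gene, with the gene in grey, bars for peak intervals, triangles for the summit of highest fold and ticks for other summits. The dotted line parts 30 min from 5 min of crosslinking. Triangles line up outside the same gene end in every CEH-60 and UNC-62 list, and the DLS422 list holds 1 peak, by vit-4.

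Each vit gene carried its strongest CEH-60 peak just outside the same end in all 5 CEH-60 lists. That end was the low-coordinate one at vit-1, vit-2, vit-5 and vit-6 and the high-coordinate one at vit-3 and vit-4, and it is called the main end below. The main-end peaks of replicate 1 lay at X 7727127 to 7730066 for vit-1, X 5100143 to 5103079 for vit-2 and X 3572255 to 3573275 for vit-3. Those of the other genes lay at X 3563860 to 3565263 for vit-4, X 3402795 to 3405198 for vit-5 and IV 8260559 to 8266977 for vit-6. These intervals are long and run into the genes, and their summits lie outside them.

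The 5 CEH-60 summits of a gene fell close to each other. At vit-6 they lay 143 to 154 bp outside the gene (SD 4.32 bp, n = 5 lists), the tightest of the 6. At vit-3 they lay 161 to 180 bp outside (SD 7.4 bp, n = 5) and at vit-4, its near copy, 156 to 185 bp outside (SD 11.7 bp, n = 5). The vit-5 summits lay 116 to 145 bp outside (SD 12.7 bp, n = 5). At vit-1 the range was 66 to 106 bp (SD 17.9 bp, n = 5) and at vit-2 65 to 113 bp (SD 20.3 bp, n = 5). In both of these genes the short-crosslinked summits were the ones nearest to the gene. The 5 lists differ in strain, antibody or protocol and are not replicates of 1 condition, so the SD describes where the summits fell.

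**Figure D2:**
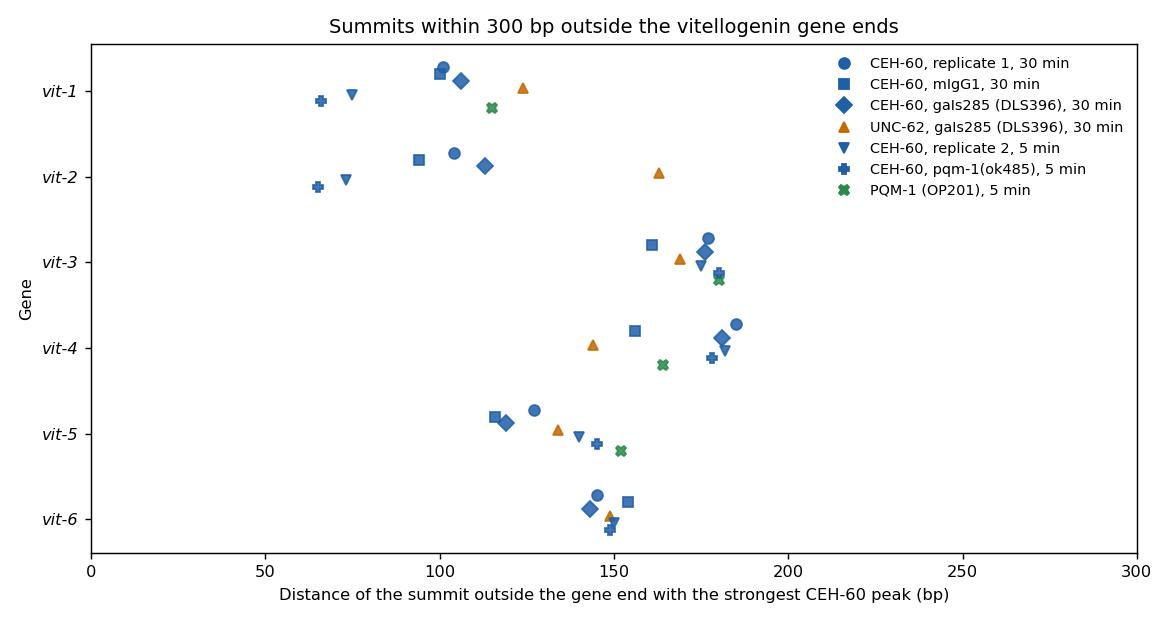
Distance in bp of each main-end summit outside the gene end, by gene, for summits within 300 bp, with 1 symbol per list (blue CEH-60, orange UNC-62, green PQM-1) and symbols set apart vertically for clarity. The vit-3 and vit-4 summits lie farther out, at 144 to 185 bp, than those of vit-1, and the vit-6 summits span 11 bp.

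Within their lists, the main-end peaks ranked near the top after long crosslinking and were spread lower after short crosslinking. In CEH-60 replicate 1 the strongest peak was 21.0-fold at vit-2, 18.6 at vit-1, 17.2 at vit-6, 17.1 at vit-5, 17.0 at vit-3 and 16.3 at vit-4. These were ranks 2, 15, 48, 51, 57 and 93 of 9008 nuclear peaks. With mIgG1 the ranks ran from 4 (vit-2) to 104 (vit-1) of 4429, and in DLS396 from 4 (vit-2) to 119 (vit-4) of 8991. In CEH-60 replicate 2 the folds were 4.15 at vit-5, 3.66 at vit-4, 3.26 at vit-1, 2.91 at vit-6, 2.79 at vit-2 and 2.66 at vit-3. There the ranks were 43, 126, 310, 642, 792 and 983 of 3430. In DLS435 they ran from 15 (vit-5) to 1600 (vit-3) of 2048. The median place over the 6 genes was above 99.5% of the list's peaks in replicate 1 and above 86.1% in replicate 2, which are lists of different length and protocol.

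Ranked by fold, the leading gene differed between the protocols. vit-2 led the vit genes in all 4 lists made with long crosslinking, and vit-5 led them in the 3 lists with short crosslinking that had peaks at all 6 genes. vit-3 came last in those 3 lists, at rank 983 in CEH-60 replicate 2, 1600 in DLS435 and 4234 of 6001 in OP201, and ran from the 2nd place to the 5th in the lists with long crosslinking. vit-1 ran from the 2nd place in CEH-60 replicate 1 to the last with mIgG1, so the order below the leader also varied within a protocol. The leader itself depended on the measure. By −log10 q, vit-3 (85.25) stood above vit-2 (85.02) for UNC-62. In OP201, vit-6 (22.73) and vit-1 (20.94) stood above vit-5 (20.13) by −log10 q. Crosslinking, shearing and library kit changed together, and their parts cannot be told apart.

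**Figure D3:**
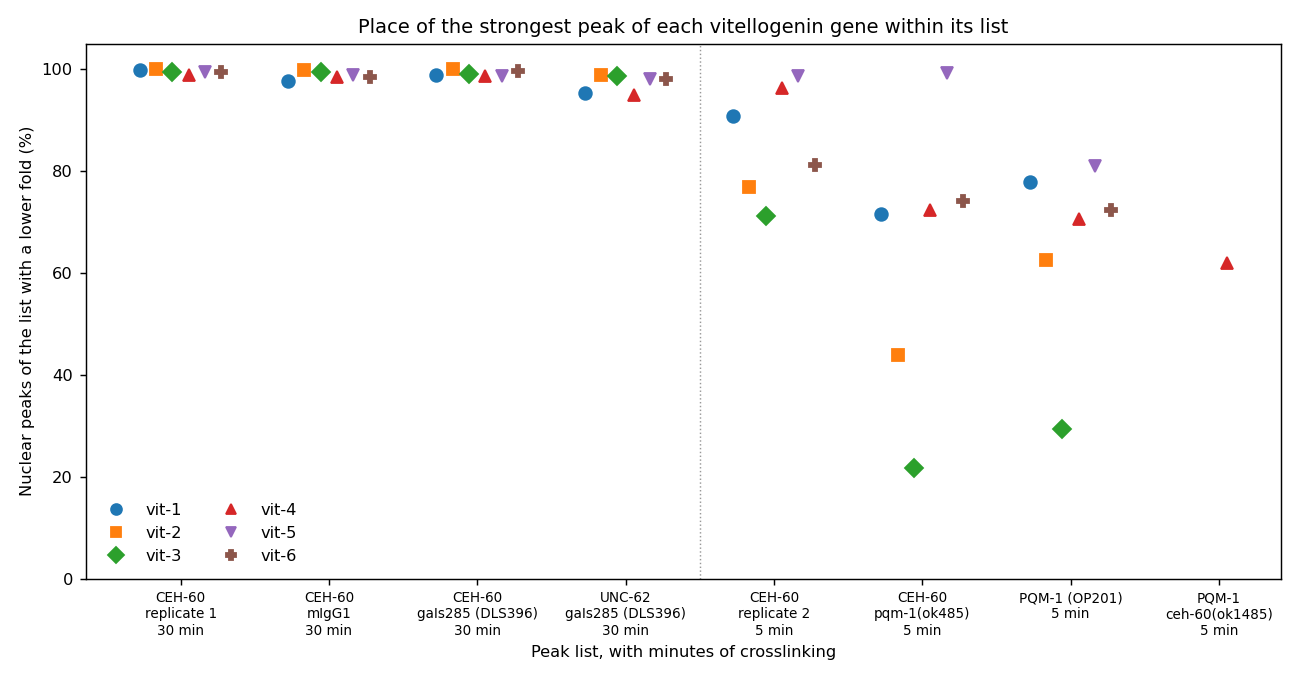
Percent of each list's nuclear peaks with a lower fold than the strongest peak of each vit gene, by list, with 1 symbol per gene and long crosslinking left of the dotted line. Left of it every symbol is at 95.0% or above. Right of it vit-5 is the highest symbol in 3 lists, and DLS422 holds vit-4 alone.

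UNC-62 sat at the same end of each gene as CEH-60 from the same strain. Its strongest peak was 13.3-fold at vit-2, 12.6 at vit-3, 12.0 at vit-6, 11.8 at vit-5, 9.50 at vit-1 and 9.19 at vit-4. These were ranks 23, 26, 36, 39, 97 and 103 of 2051 nuclear peaks. The summits lay 6 bp from the CEH-60 summit at vit-6, 7 bp at vit-3, 15 bp at vit-5, 18 bp at vit-1, 37 bp at vit-4 and 50 bp at vit-2. Their median was 16.5 bp, against 22 bp over all UNC-62 peaks that overlapped a CEH-60 peak of DLS396. Here and in the pairs below, the vit median is over the strongest peak of each gene. The other median is over peaks of any fold, and gaps at like fold were not compared. All 11 UNC-62 vit peaks overlapped such a peak, as did 98.7% of all UNC-62 peaks, so the vit genes do not stand out by that share. Counted by gene, it was 6 of 6 vit genes and 99.4% of protein-coding genes with an UNC-62 peak.

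Beyond the main ends, UNC-62 was sparse at these genes. It had weaker peaks at the far end of vit-2 (3.32-fold, X 5106385 to 5106605), vit-3 (3.83-fold, X 3567020 to 3567454) and vit-6 (4.60-fold, IV 8266458 to 8266813). Inside vit-6 it had peaks of 3.20-fold and 3.07-fold. None of the 11 CEH-60 peaks of DLS396 with a summit inside a vit gene overlapped an UNC-62 peak, and all 6 at the main ends did. In all, 9 of the 22 did, against 21.0% of all CEH-60 peaks of DLS396. The CEH-60 peaks inside the genes had folds of 3.07 to 4.86 and those at the main ends 24.5 to 31.5, and the part of peak strength in this difference was not tested.

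PQM-1 in OP201 had peaks at all 6 genes, of middling fold for its list. The strongest were 3.03-fold at vit-5 (X 3403199 to 3403641), 2.94 at vit-1 (X 7727513 to 7727956), 2.79 at vit-6 (IV 8260607 to 8267449) and 2.75 at vit-4 (X 3563978 to 3564819). vit-2 followed with 2.58 (X 5100548 to 5101393) and vit-3 with 2.13 (X 3572559 to 3572821). The ranks ran from 1137 to 4234 of 6001. At vit-1, vit-3, vit-4 and vit-5 the summit lay outside the main end, by 115, 180, 164 and 152 bp, within 40 bp of the CEH-60 replicate 2 summit. At vit-2 it lay 125 bp inside the gene and 198 bp from the CEH-60 summit. At vit-6 a single peak of 6843 bp covered the whole gene, with its summit 1939 bp inside it. So 4 of 6 genes had a PQM-1 summit outside the gene within 1000 bp, against 15.5% of protein-coding genes.

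By that summit rule the UNC-62 list and each CEH-60 list called all 6 vit genes. The shares over protein-coding genes were 23.1% in CEH-60 replicate 1, 23.5% in DLS396, 11.6% with mIgG1, 5.63% for UNC-62, 8.83% in CEH-60 replicate 2 and 4.96% in DLS435. In DLS422 it was 0 of 6 vit genes and 12.2% of protein-coding genes.

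PQM-1 and CEH-60 from the same protocol were set side by side to ask whether they met at the yolk genes. Of the 14 OP201 vit peaks, 13 overlapped a CEH-60 replicate 2 peak, against 44.9% of all OP201 peaks. By gene this was 6 of 6 vit genes and 55.8% of protein-coding genes with an OP201 peak. The exception, chosen after its values were seen, was a 2.28-fold peak at the far end of vit-4 (X 3558634 to 3558947). The 14 peaks come from 6 genes and are not independent. CEH-60 replicate 2 peaks covered 82.9% of vit-6 and 59.8% of vit-2, and the OP201 peak of vit-6 was 6843 bp long, so overlap was easily met there. Shares at like fold or width were not compared.

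In ceh-60(ok1485) animals the PQM-1 peaks at the vit genes were missing from the list, save at a site by vit-4. None of the 5 OP201 peaks outside the main ends and none of the 6 inside the genes overlapped a DLS422 peak. In all, 1 of 14 did, against 67.9% of all OP201 peaks and 85.1% of the OP201 peaks that also had a CEH-60 replicate 2 peak. By gene it was 1 of 6 vit genes, against 74.1% of protein-coding genes with an OP201 peak. In the other direction 83.4% of all DLS422 peaks overlapped an OP201 peak, as did the single vit one. With 1 library per genotype, the spread between libraries of a genotype was not measured.

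The site kept by vit-4 lay at X 3557516 to 3557860 in DLS422 (2.50-fold, rank 1911 of 5020) and at X 3557563 to 3557958 in OP201 (2.43-fold). The summits lay 1082 and 1080 bp beyond the far end of vit-4, inside the neighbouring gene rgs-7, a regulator of G protein signalling. It counts as a vit-4 peak because its interval reaches to 909 bp of the gene. With a distance of 500 bp, DLS422 had no vit gene. Elsewhere the nearest DLS422 peak was 1802 bp from vit-1, 2906 bp from vit-2, 3531 bp from vit-3, 35445 bp from vit-6 and 63662 bp from vit-5.

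Stronger OP201 peaks were found in DLS422 more often, from 40.2% in the lowest quartile of fold to 56.1%, 78.3% and 97.1% in the highest. The 14 vit peaks fell in the upper 3 quartiles, 5, 7 and 2 from low to high. The 2 in the highest quartile, at the main ends of vit-5 and vit-1, had no DLS422 peak, in a quartile where 1457 of 1500 peaks had. The DLS422 list was also shorter, with 5020 peaks against 6001 in OP201.

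**Figure D4:**
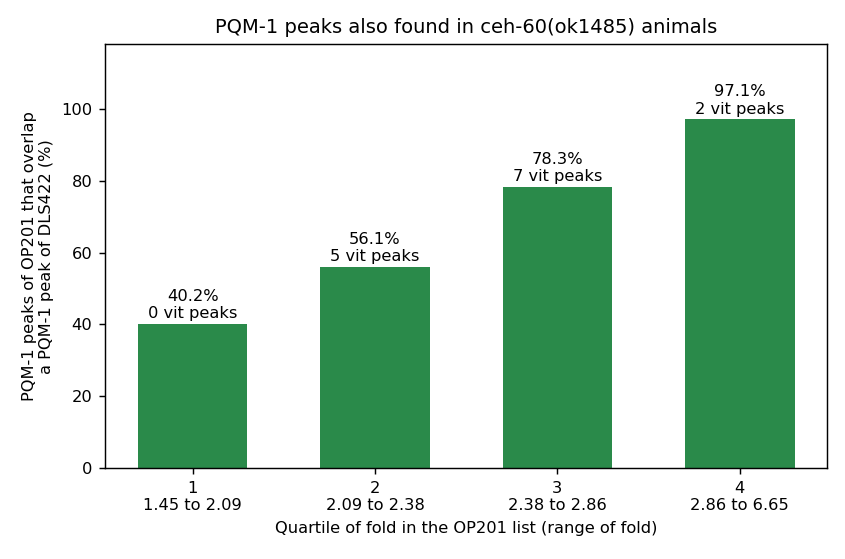
Percent of PQM-1 peaks of OP201 that overlap a PQM-1 peak of DLS422, by quartile of fold in the OP201 list, with the number of vit peaks in each quartile above the bar. The share rises from 40.2% to 97.1%, and 1 of the 14 vit peaks is shared.

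The converse strain asked whether CEH-60 needs pqm-1 at these genes. In DLS435, with pqm-1(ok485), CEH-60 kept its peak at the main end of all 6. The DLS435 folds were 3.69 at vit-5 (X 3403029 to 3403647), 2.56 at vit-6 (IV 8260859 to 8261237) and 2.53 at vit-4 (X 3563980 to 3564778). They were 2.51 at vit-1 (X 7727620 to 7727985), 2.23 at vit-2 (X 5100782 to 5101369) and 2.02 at vit-3 (X 3572578 to 3572815). The summits lay 1 to 9 bp from those of CEH-60 replicate 2, with a median of 5 bp. It was 27 bp over all overlapping peaks of the pair, of any fold, and gaps at like fold were not compared.

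Not all CEH-60 peaks at the vit genes were listed in DLS435. Of the 32 replicate 2 peaks, 14 overlapped a DLS435 peak, against 52.2% of all replicate 2 peaks, a share near the background. The folds of the shared peaks, 1.66 to 4.15, and of the others, 1.60 to 2.96, overlapped. By position these were 7 of 9 outside the main ends, 6 of 17 inside the genes and 1 of 6 at the far ends. All 15 DLS435 vit peaks overlapped a replicate 2 peak, against 92.3% of the list. By gene it was 6 of 6, against 56.0% of protein-coding genes with a replicate 2 peak. The strongest replicate 2 vit peak without a DLS435 counterpart was the 2.96-fold one by vit-4 in rgs-7 (X 3557499 to 3557962), the site where PQM-1 had its peak in both genotypes. The DLS435 list was shorter, with 2048 peaks against 3430, and its part in these counts was not tested.

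CEH-60 peaks also ran along the genes, most of all at vit-6 and vit-2. In replicate 1, peaks covered 100% of vit-6, 93.9% of vit-2, 93.6% of vit-1, 70.0% of vit-5, 31.9% of vit-3 and 18.0% of vit-4. In DLS396 the cover was 100% at vit-6, 97.1% at vit-2, 64.7% at vit-5, 60.1% at vit-1, 24.8% at vit-3 and 21.5% at vit-4. Over 50% of the gene was covered in 4 of 6 vit genes in both lists, vit-1, vit-2, vit-5 and vit-6. vit-3 and vit-4 stayed below, and vit-5 is their near copy. How reads that fit more than 1 of these copies were placed is unknown, and its part in this difference was not tested.

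The other lists covered less. In CEH-60 replicate 2 the cover was 82.9% at vit-6, 59.8% at vit-2, 32.0% at vit-1 and 13.7% or less at the rest. PQM-1 in OP201 covered 100% of vit-6 and 65.1% of vit-2, then 14.8% of vit-5 and 3.44% or less of the rest. vit-6 was the most covered gene with mIgG1 (32.7%), UNC-62 (28.8%) and in DLS435 (41.0%) too, and in DLS422 no vit gene had a covered base.

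Cover over 50% was uncommon among protein-coding genes. It was found at 1.02% of them in CEH-60 replicate 1, 0.936% in DLS396, 0.0951% with mIgG1, 0.0501% for UNC-62, 0.26% in CEH-60 replicate 2 and 0.0951% in DLS435. In OP201 it was 0.796% and in DLS422 0.756%. The vit genes are 5133 to 5303 bp long, and long genes are harder to cover. Of the 3155 protein-coding genes of 5000 bp or more, 0.285% were covered over 50% in replicate 1, which is 9 genes, 4 of them vit genes. In DLS396 it was again 9 genes, 0.285%, with 4 vit genes, and in CEH-60 replicate 2 it was 0.127%, 4 genes with vit-6 and vit-2 among them. In OP201 it was 0.539%, 17 genes with vit-6 and vit-2 among them, and in DLS422 0.349%, 11 genes with no vit gene. UNC-62 had 0.0317%, the gene unc-62 itself, and mIgG1 and DLS435 had 0%. CEH-60 in DLS396, the same strain with the transgene gaIs285, also covered 100% of unc-62, and no other list covered over 50% of it. The part of the transgene in this was not tested. Cover over such long genes was chosen for comparison after the values were seen.

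**Figure D5:**
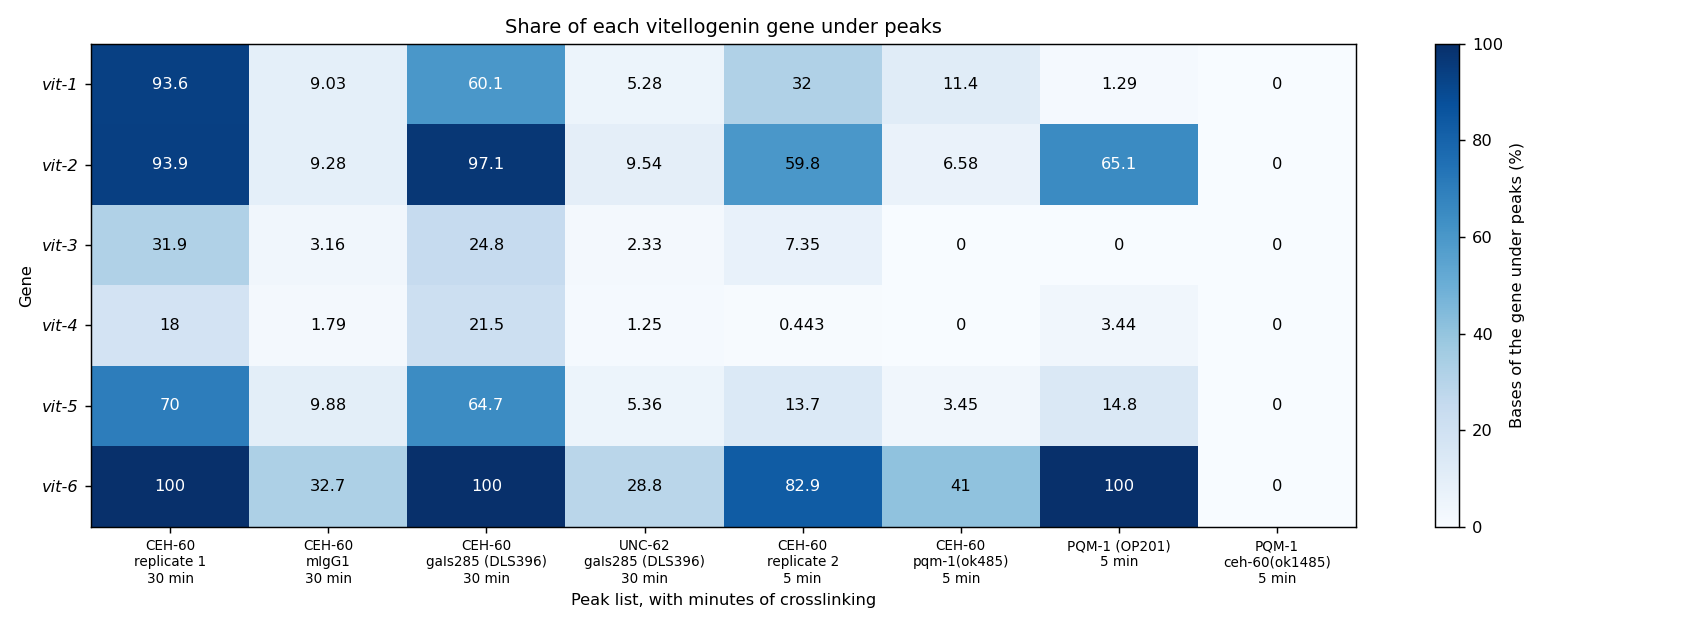
Percent of the bases of each vit gene under peaks, by gene and list, with the value in each cell and darker blue for more. vit-6 and vit-2 are the darkest rows, at 100% and 93.9% in CEH-60 replicate 1, and the DLS422 column is 0 throughout.

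Peaks were also found at the far ends of the genes, weaker than those at the main ends. In CEH-60 replicate 1 they were 8.47-fold at vit-5 (X 3408334 to 3409657), 8.24 at vit-4 (X 3556994 to 3559019), 7.53 at vit-3 (X 3565710 to 3567859), 6.34 at vit-2 (X 5104813 to 5107193) and 4.81 at vit-1 (X 7731771 to 7734194). At vit-6 the single peak reached past both ends. With mIgG1 the vit-6 far end had a separate 8.73-fold peak (IV 8266508 to 8266893), 220 bp beyond the gene. The DLS396 folds there were 14.1 at vit-4, 13.8 at vit-5, 8.88 at vit-3, 7.13 at vit-2 and 6.37 at vit-1. Of the genes with a separate far-end peak, vit-4 and vit-5 thus had the highest far-end folds in both lists. vit-6 had no far-end fold of its own in either. With mIgG1 the vit-6 far-end fold was above those of vit-4 (4.95) and vit-5 (4.31). In CEH-60 replicate 2 it was below them, at 1.76 against 2.96 and 2.35. In replicate 1 and DLS396 the vit-4 far-end summits lay 1124 and 1131 bp beyond the gene, inside rgs-7. Those of vit-5 lay inside the neighbouring gene unc-78. Position alone cannot ascribe such peaks, or their folds, to the vit gene.

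CEH-60 peaks inside the genes were weaker than the main-end peaks in replicate 1, and partly overlapped those of the far ends in fold. The 12 peaks with a summit inside a vit gene had folds of 2.60 to 5.61, led by vit-3 (5.61, X 3571282 to 3571922) and vit-4 (5.48, X 3562828 to 3563404). These lay 922 and 881 bp inside the main end of each gene, at like places in near-identical copies. DLS396 had such peaks 823 bp inside vit-3 (4.86-fold) and 780 bp inside vit-4 (4.02-fold), and CEH-60 replicate 2 had one 827 bp inside vit-3 (2.25-fold).

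The further CEH-60 libraries differed mostly inside the genes and at the far ends. Of the 24 vit peaks of replicate 1, 10 overlapped an mIgG1 peak, against 45.3% of all replicate 1 peaks, again near the background. These were 7 of 7 on the main-end side, 3 of 5 at the far ends and 0 of 12 inside the genes. The 7 include a 10.1-fold peak with its summit 2069 bp outside vit-1. By gene it was 6 of 6, against 57.1% of protein-coding genes with a replicate 1 peak. Of the same 24 peaks, 22 overlapped a DLS396 peak, against 89.9% of the list, a share near the background. The exceptions, chosen after their values were seen, were peaks of 3.22-fold in vit-1 (X 7730939 to 7731568) and 3.35-fold in vit-3 (X 3570816 to 3571032). By gene it was 6 of 6, against 93.0%. Summits of the strongest peaks in the 2 strains were 1 to 9 bp apart, with a median of 4.5 bp. It was 19 bp over all peaks that overlapped, of any fold.

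Between the CEH-60 replicates, all 32 vit peaks of replicate 2 overlapped a replicate 1 peak, as did 97.3% of its list. By gene this was 6 of 6, against 98.8%. The strongest peaks had summits 2 to 31 bp apart, with a median of 9 bp. It was 31 bp over all peaks that overlapped, of any fold. In return 17 of the 24 replicate 1 peaks were found in replicate 2, against 33.4% of all replicate 1 peaks. These were all 7 on the main-end side, all 5 at the far ends and 5 of 12 inside the genes. The 17 had folds of 3.08 to 21.0 in replicate 1 and the others 2.60 to 5.48. Replicate 2 held 3430 nuclear peaks against 9008, and shares at like fold or width were not compared.

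Neighbouring genes share many of these peaks. Peaks at the main end of vit-2 overlapped or lay within 1000 bp of the non-coding RNA gene C42D8.16 in 7 lists. Those at the main end of vit-1 did so with the protein-coding gene spp-14 in 4 lists. The main-end peak of vit-3 overlapped or lay near T27A10.8, a non-coding RNA gene, and T27A10.5 in 7 lists, and that of vit-4 the non-coding RNA gene F59D8.3. The vit-5 main-end peaks were also within 1000 bp of C04F6.9, and those of vit-6 of K07H8.7. The strongest vit-6 peak overlapped the non-coding RNA gene K07H8.16 in 7 lists, and its summit lay inside K07H8.16 in 5 of them. Peaks at the far ends fell in or by set-12, a SET-domain gene, at vit-1, C42D8.9 at vit-2, rgs-7 at vit-4, unc-78, a gene of actin filament dynamics, at vit-5 and K07H8.8 at vit-6. Summits lay inside unc-78 in 6 far-end vit-5 peaks and inside rgs-7 in 6 peaks by vit-4. Such a peak cannot be ascribed to the vit gene rather than its neighbour from position alone.

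All vit genes but vit-4, 5 in number, had a peak in the 7 other lists and none in DLS422. That pattern was found at 92 of 19971 protein-coding genes, 0.461%, and a peak in all 8 lists, as at vit-4, at 4.84%. The pattern was taken from the vit genes themselves, so its share describes how common it is and is no independent support. The 92 include the 5 vit genes, and K07H8.7, which has the pattern through the vit-6 peak. Among the 1058 protein-coding genes with a peak in the 7 other lists, 8.70% lacked a DLS422 peak. The vit genes with the pattern were 6 at a distance of 500 bp and 4 at 2000 bp, where vit-1 gained a DLS422 peak.

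Genes most like the vit genes over the 8 lists were sought by the percent of each list's peaks below the gene's strongest peak, with 0 for none. The median vit gene stood at 99.5% in CEH-60 replicate 1, 99.0% in DLS396, 98.7% with mIgG1, 98.2% for UNC-62, 86.1% in CEH-60 replicate 2, 72.1% in DLS435, 71.5% in OP201 and 0% in DLS422. The 10 nearest other protein-coding genes lay 5.35 to 17.2 percentage points away by Euclidean distance. K07H8.7 (5.35) came first through the vit-6 peak itself. It was followed by the neighbours eef-1G, an elongation factor gene, and dbd-16 (both 7.69, through a shared peak) and by pha-2, which encodes a homeodomain protein needed in the pharynx (9.89). Then came tpst-1 (14.5), tag-123 (14.8), flwr-1 and tbc-1 (both 16.2, a shared peak), T01C8.3 (16.8) and nhr-76, a nuclear hormone receptor gene (17.2). As the vit median was 0% in DLS422, a gene with a peak of usual rank there could not be among the 10. vit-6 was 5.35 and vit-1 8.65 from the vit median. The other 4 vit genes lay farther from it than all 10, vit-2 at 30.9, vit-5 at 31.5, vit-4 at 62.8 and vit-3 at 67.2.

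Other genes of the yolk pathway had peaks in part, and 7 of 17 had one in all 5 CEH-60 lists, against 6.97% of protein-coding genes. The list of 17 holds regulators of yolk genes, the lipid transfer protein gene dsc-4 and rme-2, the oocyte receptor for yolk. Peaks by the same rule were found at 15 of 17 in CEH-60 replicate 1, 15 in DLS396, 12 with mIgG1, 8 for UNC-62, 9 in CEH-60 replicate 2, 7 in DLS435, 11 in OP201 and 10 in DLS422. The shares over protein-coding genes are those given above, 33.2% in replicate 1 and 16.9% in DLS422, and 2 of the 17 are microRNA genes. By strongest fold in replicate 1 the leading members were ceh-60 itself (21.1), tra-1, the terminal regulator of sex determination (18.7), mab-3, which represses yolk genes in males (18.1), and lin-14, a factor of developmental timing (15.4). These 4, with elt-2, the intestinal GATA factor, daf-16, the FOXO factor of insulin signalling, and unc-62, had a peak in all 8 lists. A peak in all 8 lists was found at 4.84% of protein-coding genes. None of the 17 had a peak in all lists but DLS422, against 5 of 6 vit genes. That pattern was found at 0.461% of protein-coding genes, so its absence among the 17 is near the background. rme-2 had CEH-60 peaks after long crosslinking alone, 5.63-fold in replicate 1. So did dsc-4, at 4.44-fold in replicate 1 and 5.81-fold in DLS396. dsc-4 also had peaks in both PQM-1 lists, 2.51-fold in OP201 and 2.32-fold in DLS422. The microRNA gene lin-4 and rict-1, a subunit gene of the kinase complex TORC2, had none.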

How the data were processed

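ChIP-seq peak lists of whole day 1 adults were used as deposited, 1 for each of 8 immunoprecipitated samples in 7 groups by strain and antibody. The tools named, per the submitters' processing notes and without versions, are MACS2, Bowtie2, deepTools and SAMtools. Genome build, control libraries, duplicates and reads that match several sites are not described in the sources used here. The fold deposited by the authors is a ratio of summit signal to local background. The authors also gave each summit a −log10 p and a −log10 q, the latter never below 2. In all 40986 peaks the deposited score equalled the −log10 q times 10, cut to a whole number, and it was not used.

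Computation was done with pandas 2.3.3, numpy 2.4.6 and matplotlib 3.10.9 under Python 3.11.15. Peaks of the 6 nuclear chromosomes were joined to the 6 vit genes by interval, with 1000 bp of flank, and lists shared a peak where intervals had 1 bp in common. Interval functions were tested on simulated data. The gene table names no strand, so distances to gene ends replaced the planned distance to the start. To check the coordinate frame, protein-coding genes of IV and X were shifted against the summits in steps of 10 bp. Summits fell outside genes most often at shifts of −30 to 40 bp over 16 sets. The shares at the best shift and unshifted were close, such as 58.1% and 57.3% for CEH-60 replicate 2 on IV. The check thus cannot measure the error in distances to gene ends, and an error of that order remains possible. Planned motif counts and sequence identities were not run, since no sequence was used here.

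Named genes are the vit genes, neighbours that share a vit peak, yolk pathway members by count with up to 4 of highest fold, and the 10 genes of most like pattern. A few more are named with their counts. Members, lists and comparisons were chosen with earlier results of these data known.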

Additional observations from a re-analysis of the deposited data

How the results depend on the processing

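Of 92 alternative counts, 81 stayed within 1.5 times of the main count and 11 did not. Of 24 alternative medians, which have no replicate spread, 5 stayed equal and 19 changed by any amount. The vit genes with a peak in every CEH-60 list were 6 without replicate 1 and 6 without replicate 2. The vit genes with a peak fell from 6 to 4 in DLS435 and to 5 in OP201 at a distance of 0 bp, and to 5 in both with a −log10 q of 10 or more. In DLS422 they fell from 1 to 0 at a distance of 0 bp, at 500 bp, with a −log10 q of 10 or more and with the summit within 1000 bp, and rose to 2 at 2000 bp. Its vit peaks were 0 at 500 bp and 3 at 2000 bp, and its vit genes with a summit outside were 1 at 2000 bp. With 50% of both peaks required, vit genes with a shared peak fell from 6 to 1 between 3F10 and mIgG1, to 0 between UNC-62 and CEH-60 of DLS396 and to 3 between the CEH-60 replicates, whose peaks differ in length. They fell to 4 between PQM-1 and CEH-60 and to 5 between CEH-60 with and without pqm-1. Ranked by −log10 q, the median place was 99.6% in CEH-60 replicate 1, 99.4% in DLS396, 99% with mIgG1, 98.1% for UNC-62, 91.3% in CEH-60 replicate 2, 77.6% in DLS435, 78.6% in OP201 and 56.9% in DLS422. With the nearest summit of a gene in place of the strongest, the median distance to the nearer end was 115.5 bp in CEH-60 replicate 1 (136 bp before), 128 bp in DLS396 (131), 98.5 bp with mIgG1 (135), 139 bp for UNC-62 (146.5), 107.5 bp in CEH-60 replicate 2 (145) and 138.5 bp in OP201 (158). With a −log10 q of 10 or more, the median cover of the vit genes was 71.8% in CEH-60 replicate 1 (81.8% before), 51.8% in DLS396 (62.4%), 7.42% in CEH-60 replicate 2 (22.9%), 1.68% in DLS435 (5.01%) and 8.07% in OP201 (9.14%). Motifs on the forward strand alone were not run. No paired analysis was possible because no groups share 2 replicate numbers and no result comes from a test. Depth is unknown, so a peak missing from a list may lie below its threshold.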

Other observations

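vit-4 and vit-3 lie side by side on X, with 3389 bp between them, and the main end of vit-4 and the far end of vit-3 face each other across that gap. Peaks covered 86.8% of it in CEH-60 replicate 1, 74.0% in DLS396 and 55.7% in CEH-60 replicate 2. The cover was 23.7% with mIgG1, 22.8% for UNC-62, 23.6% in DLS435 and 24.8% for PQM-1 in OP201. CEH-60 replicate 1 had 2 summits there and PQM-1 in DLS422 had none.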
